A study of Mus musculus with 9 samples.

Results

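The genes described here are 44 cell cycle genes and cyclin-dependent kinase inhibitors, taken by name from a table of 43472 genes. By role they were 11 genes of the G1 phase, 11 of S phase, 19 of G2 phase and mitosis (here called mitotic, with Mki67 and Top2a) and 3 inhibitors. RNA was sequenced from C57BL/6J mouse tissue in 9 libraries, 3 each of immature cartilage (ImC, immature chondrocytes), mature cartilage (MatC, mature chondrocytes) and bone (Bone, osteoblasts). All groups shared the strain, and the labels name no further genotype, no treatment, no age, no sex and no skeletal site. Whether the 3 libraries of a group come from different animals is not said either. The p-values therefore reflect only how these libraries vary, which may be technical.

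A cell enters the cycle when D-type cyclins, with CDK4 or CDK6, phosphorylate the retinoblastoma protein and its relatives, which frees E2F factors to switch on the genes of DNA replication. Later genes copy the DNA and then build the spindle, pull the chromosomes apart and split the cell, and inhibitors of the CDKs, such as the product of Cdkn1a, hold the cycle back. In growth cartilage, immature chondrocytes divide and then leave the cycle as they mature and enlarge, and osteoblasts form bone matrix on cartilage that has matured.

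Levels are counts per 1e6 reads (CPM), scaled with trimmed mean of M values (TMM) factors, so that they are relative to the other RNA of a library. In bulk tissue, fewer dividing cells and less of an RNA per cell cannot be told apart. Library totals ran from 7913684 to 23159547 reads, and the members together held between 4826 and 65982 reads. Every member passed the filter on low counts, and the lowest single count was 12 reads, for Cdc6 in MatC 3. Mitochondrially encoded genes took 33.7% to 82.3% of the reads in MatC, 32.0% to 55.0% in ImC, and 7.24% to 8.91% in Bone. MatC 3 stood apart, with that highest share and reads in 14940 genes, against at least 17535 in each other library. ImC 3 held the lowest level of its group in 34 of the 44 members, with a median of 0.606 times the mean of ImC 1 and ImC 2. This did not hold for all cell cycle genes. Further replication and S-phase genes, listed below, summed highest in ImC 3 (1630.1 CPM, against 1467 and 1249.6 in ImC 1 and 2). Further mitosis genes summed lowest there (1681, against 1980.2 and 2081). So did those of G1 control (408, against 474 and 505) and of inhibitors and growth arrest (1759, against 1948 and 1922). Chondrocyte markers summed to between 19407 and 27422 CPM in ImC and between 13634 and 31886 CPM in MatC, against at most 3703 CPM in Bone. At an adjusted p under 0.05, all 8 hypertrophic chondrocyte markers were higher in MatC than in ImC, as were 5.41% of all genes. All 12 osteoblast markers were higher in Bone than in ImC, as were 14.3% of all genes. These lists set MatC and Bone apart less well, and both hold Alpl. In Bone against MatC, 0 of the 12 osteoblast markers were called higher, where 1.36% of all genes were. Of these, 10 had every Bone library above every MatC library, as had 17.9% of all genes. Of the 8 hypertrophic markers, 3 were called lower in Bone than in MatC, where 4.69% of all genes were. Osteoblast markers were also present in MatC, at 8451, 26793 and 1258 CPM in MatC 1, 2 and 3.

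Cell cycle RNA was highest in immature cartilage and lowest in bone for most of the 44 genes, and Cdkn1a and Rb1 were higher in MatC and in Bone than in ImC. The tests used edgeR's quasi-likelihood fit over all 14257 genes that passed the filter, and a gene was called at a Benjamini-Hochberg adjusted p under 0.05. Log2 fold changes are written ± the standard error (SE). In MatC against ImC, 6 members were lower, all of them mitotic (Top2a, Tpx2, Cenpe, Cenpf, Kif11 and Kif23), and 2 were higher, Rb1 and Cdkn1a. Among all genes tested, 2.29% were called lower and 5.41% higher in that comparison. In Bone against MatC, 5 members were lower (Cdk6, Mki67, Cenpe, Bub1 and Kif23) where 4.69% of all genes were, and 0 members were higher where 1.36% were. That count of 0 was also 0 at an unadjusted p under 0.05 and 0 by DESeq2's Wald test. In Bone against ImC, 26 members were lower and 2 higher, where 16.8% of all genes were called lower and 14.3% higher. In either direction, 7.71%, 6.05% and 31.1% of all genes were called in these comparisons. The 3 comparisons share libraries, so they are given side by side and are not independent of each other.

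The median log2 fold change of the 44 members was -0.77 in MatC against ImC, -0.58 in Bone against MatC and -1.24 in Bone against ImC, where the medians of all genes were 0.03, -0.03 and -0.02. The mean level was highest in ImC, lower in MatC and lowest in Bone for 36 of the 44 members, an order that 27.3% of all genes had. All 19 mitotic members, 9 of the 11 S-phase members and 7 of the 11 G1 members had it, and so did Cdkn2c. Every ImC library lay above every MatC library, and every MatC library above every Bone library, in 8 members (Ccne1, Rrm1, Tyms, Top2a, Cenpe, Cenpf, Bub1 and Kif23), against 3% of all genes. Groups did not overlap, with the named group lower, in 13 members for MatC against ImC, 19 for Bone against MatC and 29 for Bone against ImC, where the shares of all genes were 12.5%, 17.7% and 28.8%. With the named group higher they were 3, 0 and 3 members, against 11.4%, 17.9% and 30.1% of all genes. Scaling by library size only moved the median of all genes to -0.51, 0.95 and 0.46 in these comparisons, and under it 36 of the 44 members had positive values in Bone against MatC, where 39 were negative with TMM scaling.

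**Figure D1:**
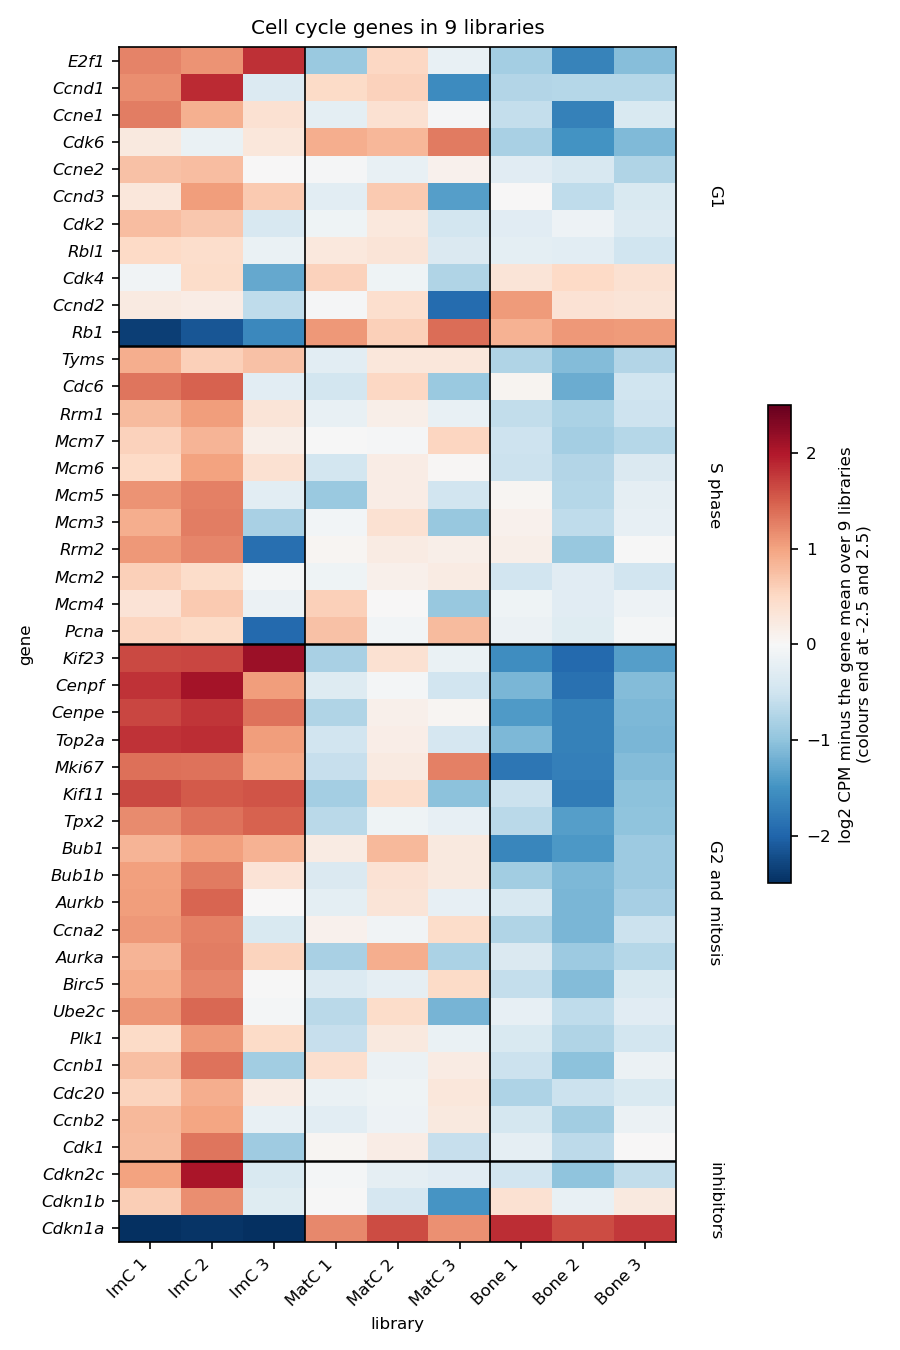
Level of each of the 44 members in the 9 libraries (columns, grouped as ImC, MatC and Bone), as colour on the log2 scale relative to the gene's mean over libraries, with genes in rows by role. The mitotic block is red in ImC 1 and ImC 2, mixed in ImC 3 (Cdk1 is at its lowest there) and mostly blue in Bone, Cdkn1a and Rb1 are blue in ImC, and ImC 3 holds the lowest value of its group in 34 of the 44 genes.

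Single libraries moved these counts. Leaving out ImC 3 raised the members called lower from 6 to 10 in MatC against ImC, from 5 to 10 in Bone against MatC and from 26 to 35 in Bone against ImC. All genes called lower then went from 327 to 342, from 669 to 1160 and from 2393 to 1970. The 5 calls of Bone against MatC were the least firm: 2 remained without ImC 1, 3 without MatC 2, 2 without MatC 3, 1 without Bone 1 and 0 without Bone 2 or without Bone 3. Calls over all genes fell there too, from 669 lower to 465 without ImC 1, 570 without MatC 2 and 401 without MatC 3. Without Bone 1, 2 or 3 they fell to 176, 153 and 213. Of the 26 lower in Bone than in ImC, 17 remained without ImC 1, 17 without Bone 1, 12 without Bone 2 and 16 without Bone 3. Over all genes, 2393 were lower, and 1781, 1338, 1121 and 1195 were in those settings. Without ImC 3 and MatC 3 together, an alternative chosen after seeing the data, 16 members were lower in MatC than in ImC, 9 lower in Bone than in MatC and 36 lower in Bone than in ImC. The counts of all genes lower were then 581, 1041 and 2756. With library size only, 3 members were lower in MatC than in ImC (Cenpe, Kif23 and Tpx2), 0 lower in Bone than in MatC and 8 lower in Bone than in ImC. All genes lower numbered 167, 178 and 849 there. With only the 2 compared groups in the fit, Cenpf and Tpx2 were the 2 members called lower in MatC than in ImC, among 48 of all genes. The 2 higher members, Rb1 and Cdkn1a, were called in each of the 16 alternatives run, both against ImC.

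Most mitotic genes were lower in Bone than in ImC. Their median log2 fold change was -0.84 in MatC against ImC, -0.72 in Bone against MatC and -1.72 in Bone against ImC, and all 19 genes were negative in each. Against ImC, 6 of the 19 were called lower in MatC and 16 lower in Bone, where 2.29% and 16.8% of all genes were. Ccnb1, Cdk1 and Ube2c were the 3 not called in Bone.

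RefSeq promoters on GRCm38.p6 (250 bases before to 50 after the first listed start) matched 36 of the 44 members by symbol (not Ccnd1, Ccnd2, Ccne2, Rb1, Mcm4, Tpx2, Ccna2 or Aurkb). Each window was searched on both strands for the cell cycle genes homology region (CHR, TTTGAA), the CCAAT box (CCAAT) and E2F-like motifs (TTTNNCGC and TTCCCGC, which overlap each other in some sites). Of 16 mitotic promoters, 12 held a CHR and a CCAAT box together (75.0%), against 7.12% of 27025 promoters of all genes, and 1 held an E2F-like motif. Of 10 S-phase promoters, 7 held an E2F-like motif (70.0%), against 8.56% of all promoters, and 1 held a CHR. The 7 G1 promoters held a CHR in 0 and an E2F-like motif in 3 cases. Windows of some members, E2f1 and Cdk6 among them, lie wholly inside the annotated gene, so sequence before its outermost start was not searched. The E2f1 window, with no match, is chr2:154569377-154569676, while the gene on the minus strand begins at 154569892. The promoter windows listed for Cdkn1a held none of these letters, which says only that they are not in those windows. A match is a description of sequence, not of a bound site. The windows of 3 mitotic genes called lower in MatC that carry the CHR and CCAAT pair are shown, and that of Mcm6 as an S-phase gene with E2F-like motifs. Cenpf, also called lower in MatC, carries the pair too and is not shown. The pair did not follow the call in MatC. Mki67 and Cdk1 held it and were not called lower there, while Cenpe was called and held no CHR. Each is written 5′ to 3′ on the gene's strand, to 30 bases after the start, with the matched motifs in capitals (ATTGG is CCAAT and TTCAAA is TTTGAA on the other strand). They lie at chr11:99024160-99024439 (minus strand, Top2a), chr9:61946770-61947049 (minus, Kif23), chr19:37376132-37376411 (plus, Kif11) and chr1:128359676-128359955 (minus, Mcm6).
Top2a: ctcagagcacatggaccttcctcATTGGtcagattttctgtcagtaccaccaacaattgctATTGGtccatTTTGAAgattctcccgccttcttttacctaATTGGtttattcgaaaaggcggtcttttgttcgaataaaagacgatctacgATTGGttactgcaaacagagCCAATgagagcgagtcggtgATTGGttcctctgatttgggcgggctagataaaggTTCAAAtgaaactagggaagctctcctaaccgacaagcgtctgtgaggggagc
Kif23: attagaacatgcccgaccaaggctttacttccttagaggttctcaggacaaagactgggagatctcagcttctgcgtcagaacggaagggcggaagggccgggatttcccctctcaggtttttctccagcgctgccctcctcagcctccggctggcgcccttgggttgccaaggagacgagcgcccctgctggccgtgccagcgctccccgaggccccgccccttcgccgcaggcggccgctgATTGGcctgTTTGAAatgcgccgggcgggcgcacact
Kif11: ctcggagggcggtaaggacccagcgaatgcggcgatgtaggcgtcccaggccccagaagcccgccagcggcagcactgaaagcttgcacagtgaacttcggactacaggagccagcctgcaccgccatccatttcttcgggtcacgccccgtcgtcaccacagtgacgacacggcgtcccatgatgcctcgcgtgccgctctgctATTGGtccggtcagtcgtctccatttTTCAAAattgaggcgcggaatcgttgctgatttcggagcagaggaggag
Mcm6: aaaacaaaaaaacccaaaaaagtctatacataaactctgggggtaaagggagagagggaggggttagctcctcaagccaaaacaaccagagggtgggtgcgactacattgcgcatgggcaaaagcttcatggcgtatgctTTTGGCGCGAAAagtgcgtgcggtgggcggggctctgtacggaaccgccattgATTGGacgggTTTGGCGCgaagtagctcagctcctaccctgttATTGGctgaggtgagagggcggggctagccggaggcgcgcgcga
Capitals in the first 3 are CHR and CCAAT matches, and in Mcm6 they are E2F-like and CCAAT matches. The Kif23 and Kif11 windows hold 1 CHR downstream of 1 inverted CCAAT box, and the Top2a window holds 2 CHR and 6 CCAAT matches.

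Top2a encodes the topoisomerase that untangles DNA before chromosomes separate (chr11:98992943-99024189, minus strand). Its level was 393, 404 and 229.5 CPM in ImC 1 to 3, 79.9, 125 and 83.4 in MatC and 51.4, 34.7 and 50.4 in Bone. No library of one group overlapped another, and ImC 3 was the lowest of its group. The log2 fold change was -1.83 ± 0.33 (adjusted p = 0.0132) in MatC against ImC, -1.08 ± 0.33 (adjusted p = 0.0798, not called) in Bone against MatC and -2.91 ± 0.35 (adjusted p = 0.000468) in Bone against ImC, a 7.52-fold lower level.

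A pair of motor proteins of mitosis had the same order. Kif23, a kinesin needed for cytokinesis (chr9:61915905-61946774, minus strand), measured 69.3, 70.4 and 97 CPM in ImC, 12.5, 28.8 and 19.5 in MatC and 7.53, 5.74 and 8.5 in Bone. The groups did not overlap, and ImC 3 was here the highest library. Kif23 was called lower in all 3 comparisons, with log2 fold changes of -1.96 ± 0.34 (adjusted p = 0.0119) in MatC against ImC, -1.48 ± 0.34 (adjusted p = 0.0332) in Bone against MatC and -3.44 ± 0.36 (adjusted p = 0.000255) in Bone against ImC. The last was a 10.8-fold difference, and the call between Bone and MatC was lost without ImC 1, MatC 2, MatC 3, Bone 1, Bone 2 or Bone 3 (adjusted p from 0.0589 to 0.171). Kif11, the kinesin that pushes spindle poles apart, measured 75.7, 70.2 and 72.1 CPM in ImC, 13.5, 33 and 11.9 in MatC and 16.6, 7.19 and 11.9 in Bone. The ImC libraries were close together and above all others, while MatC and Bone overlapped. Its value was -1.89 ± 0.43 (adjusted p = 0.0295) in MatC against ImC, a call lost without ImC 1, ImC 2, MatC 1, MatC 3 or Bone 3 (adjusted p from 0.0562 to 0.0889), and -2.61 ± 0.44 (adjusted p = 0.00262) in Bone against ImC.

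Spindle and centromere genes followed. Cenpe, a kinesin that carries chromosomes to the spindle's middle, was at 95.2, 103 and 76.2 CPM in ImC, 17.7, 32.4 and 30.8 in MatC and 11.1, 9.25 and 13.6 in Bone, with no overlap between groups. All 3 comparisons were called, with -1.76 ± 0.30 (adjusted p = 0.0108) in MatC against ImC, -1.25 ± 0.30 (adjusted p = 0.0391) in Bone against MatC and -3.01 ± 0.32 (adjusted p = 0.000255) in Bone against ImC on the log2 scale. The call between Bone and MatC was lost without ImC 1, MatC 2, MatC 3, Bone 1, Bone 2 or Bone 3 (adjusted p from 0.0737 to 0.194). Cenpf, a large kinetochore protein, was at 92.4, 112 and 54.4 CPM in ImC, 21, 25.4 and 19 in MatC and 11.9, 7.19 and 12.5 in Bone. The groups did not overlap, and its log2 fold change was -1.98 ± 0.34 (adjusted p = 0.0106) in MatC and -3.03 ± 0.35 (adjusted p = 0.000421) in Bone, both against ImC. Tpx2, which activates Aurora A on the spindle, was at 56, 63.4 and 68.4 CPM in ImC, 15.4, 23 and 21.5 in MatC and 15.4, 9.5 and 12.3 in Bone. Every ImC library lay above every other library, and MatC and Bone overlapped. Its log2 value was -1.65 ± 0.28 (adjusted p = 0.0104) in MatC and -2.33 ± 0.29 (adjusted p = 0.000603) in Bone against ImC. Of the 6 genes lower in MatC than in ImC, Tpx2 was the 1 called under each alternative.

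Mki67, which encodes the Ki-67 antigen of cycling cells, and Bub1, a kinase of the spindle checkpoint, were both lower in Bone than in MatC and ImC. Mki67 was at 174, 173 and 130.5 CPM in ImC, 44.9, 78.4 and 159.8 in MatC and 19.2, 20.6 and 31.5 in Bone. MatC 3, the library with the highest mitochondrial share, was 2.59 times the mean of MatC 1 and MatC 2 and overlapped ImC. Its log2 fold change was -0.76 ± 0.43 (adjusted p = 0.305, not called) in MatC against ImC, -1.98 ± 0.44 (adjusted p = 0.0285) in Bone against MatC and -2.74 ± 0.45 (adjusted p = 0.00227) in Bone against ImC. The call between Bone and MatC was lost without ImC 1, MatC 3, Bone 1, Bone 2 or Bone 3 (adjusted p from 0.0535 to 0.146). Without ImC 3 and MatC 3 together, the value in MatC against ImC was -1.48 (adjusted p = 0.0245) and that in Bone against MatC was -1.35 (adjusted p = 0.0259). Bub1 was at 15, 17.1 and 15.2 CPM in ImC, 9.63, 14.7 and 9.9 in MatC and 2.71, 3.08 and 4.45 in Bone, with no overlap. Bub1 gave a log2 fold change of -0.46 ± 0.33 (adjusted p = 0.421, not called) in MatC against ImC, -1.74 ± 0.34 (adjusted p = 0.0178) in Bone against MatC and -2.21 ± 0.34 (adjusted p = 0.00178) in Bone against ImC. The call between Bone and MatC was lost without Bone 1, Bone 2 or Bone 3 (adjusted p from 0.0542 to 0.112).

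The other 8 called mitotic genes were called in Bone against ImC only, and the differences between comparisons were not tested. Bub1b, another checkpoint kinase, was at 28, 33.5 and 17.4 CPM in ImC, 10.7, 17.5 and 16.1 in MatC and 7.47, 6.25 and 7.32 in Bone, and its log2 fold change was -1.90 ± 0.34 (adjusted p = 0.00327). Aurkb, the kinase of the chromosomal passenger complex, was at 25.4, 34.1 and 12.4 CPM in ImC, 10.5, 15.4 and 10.7 in MatC and 9.37, 5.57 and 6.93 in Bone, with a log2 fold change of -1.72 ± 0.41 (adjusted p = 0.0115). Birc5, which encodes survivin of the same complex, was at 107, 131 and 55.4, 44.1, 47.9 and 78.4 and 37.3, 26.6 and 42.8 CPM in those groups, with -1.46 ± 0.38 (adjusted p = 0.0161). In these 3 genes every ImC library lay above every Bone library, and ImC 3 was the lowest ImC library. The Aurkb call was lost without Bone 2 or Bone 3 (adjusted p from 0.0548 to 0.0619), and the Birc5 call without ImC 1, Bone 1 or Bone 2 (adjusted p from 0.0516 to 0.0801). Ccna2, the cyclin of S phase and G2, was at 69.7, 78.2 and 25.2 CPM in ImC, 35, 30.7 and 44.7 in MatC and 19.4, 14.7 and 22.5 in Bone, with -1.61 ± 0.40 (adjusted p = 0.0145). Aurka, the spindle pole kinase, was at 17.7, 23.8 and 14.5 CPM in ImC, 5.61, 18.5 and 5.66 in MatC and 7.69, 5.22 and 5.97 in Bone, with -1.57 ± 0.49 (adjusted p = 0.0343). MatC 2 was the high library of its group for Aurka and lay within the range of ImC. The Ccna2 call was lost without ImC 1, Bone 1 or Bone 2 (adjusted p from 0.0521 to 0.0721), and the Aurka call without ImC 1, ImC 2, Bone 1, Bone 2 or Bone 3 (adjusted p from 0.0675 to 0.126).

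Plk1, a kinase of mitotic entry and exit, was at 19.4, 29.5 and 19.4 CPM in ImC, 9.32, 16.4 and 12.4 in MatC and 10.7, 8.22 and 10.1 in Bone, and its log2 fold change in Bone against ImC was -1.23 ± 0.32 (adjusted p = 0.0172). Cdc20, which activates the anaphase-promoting complex, was at 15, 19.2 and 11.8 CPM in ImC, 9.1, 9.45 and 12.4 in MatC and 5.96, 7.02 and 7.77 in Bone, with -1.15 ± 0.32 (adjusted p = 0.0219). Both had every ImC library above every Bone library. The Plk1 call was lost without ImC 2, Bone 1, Bone 2 or Bone 3 (adjusted p from 0.0547 to 0.0858), and the Cdc20 call without ImC 1, ImC 2, Bone 1, Bone 2 or Bone 3 (adjusted p from 0.0638 to 0.0977). Ccnb2, a cyclin of mitosis, was at 32.5, 36.5 and 16.2 CPM in ImC, 15.5, 16.9 and 21.8 in MatC and 13.7, 10.2 and 16.8 in Bone, with -1.06 ± 0.36 (adjusted p = 0.0451). Here ImC 3 lay below Bone 3, so the groups overlapped, and the call was lost without ImC 1, ImC 2, MatC 1, MatC 2, Bone 1, Bone 2 or Bone 3 (adjusted p from 0.0521 to 0.171). Its named copy in the table, Ccnb2-ps, held 266 reads against 2545 for Ccnb2, and how the counting shared reads between them is not given in the sources used here.

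Cdk1, the kinase that drives mitosis, passed no test. It was at 92.4, 135 and 29 CPM in ImC, 55.3, 61 and 35.9 in MatC and 45.7, 34.3 and 54.1 in Bone. ImC 3 was 0.255 times the mean of ImC 1 and ImC 2 and lay below every other library. The log2 fold change was -0.75 ± 0.48 (adjusted p = 0.369), -0.19 ± 0.47 (adjusted p = 0.858) and -0.93 ± 0.48 (adjusted p = 0.159) in MatC against ImC, in Bone against MatC and in Bone against ImC. Of the other mitotic genes not called, Ccnb1, a cyclin partner of CDK1, was at 59.5, 89.5 and 19.2 CPM in ImC and 24.2, 17.2 and 31.8 in Bone, and Ube2c, which marks cyclins for destruction, at 85.7, 109 and 38.9 and 34.9, 25.9 and 32.8. Without ImC 3, Cdk1 was called lower in Bone than in ImC, as were Ccnb1 and Ube2c.

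**Figure D2:**
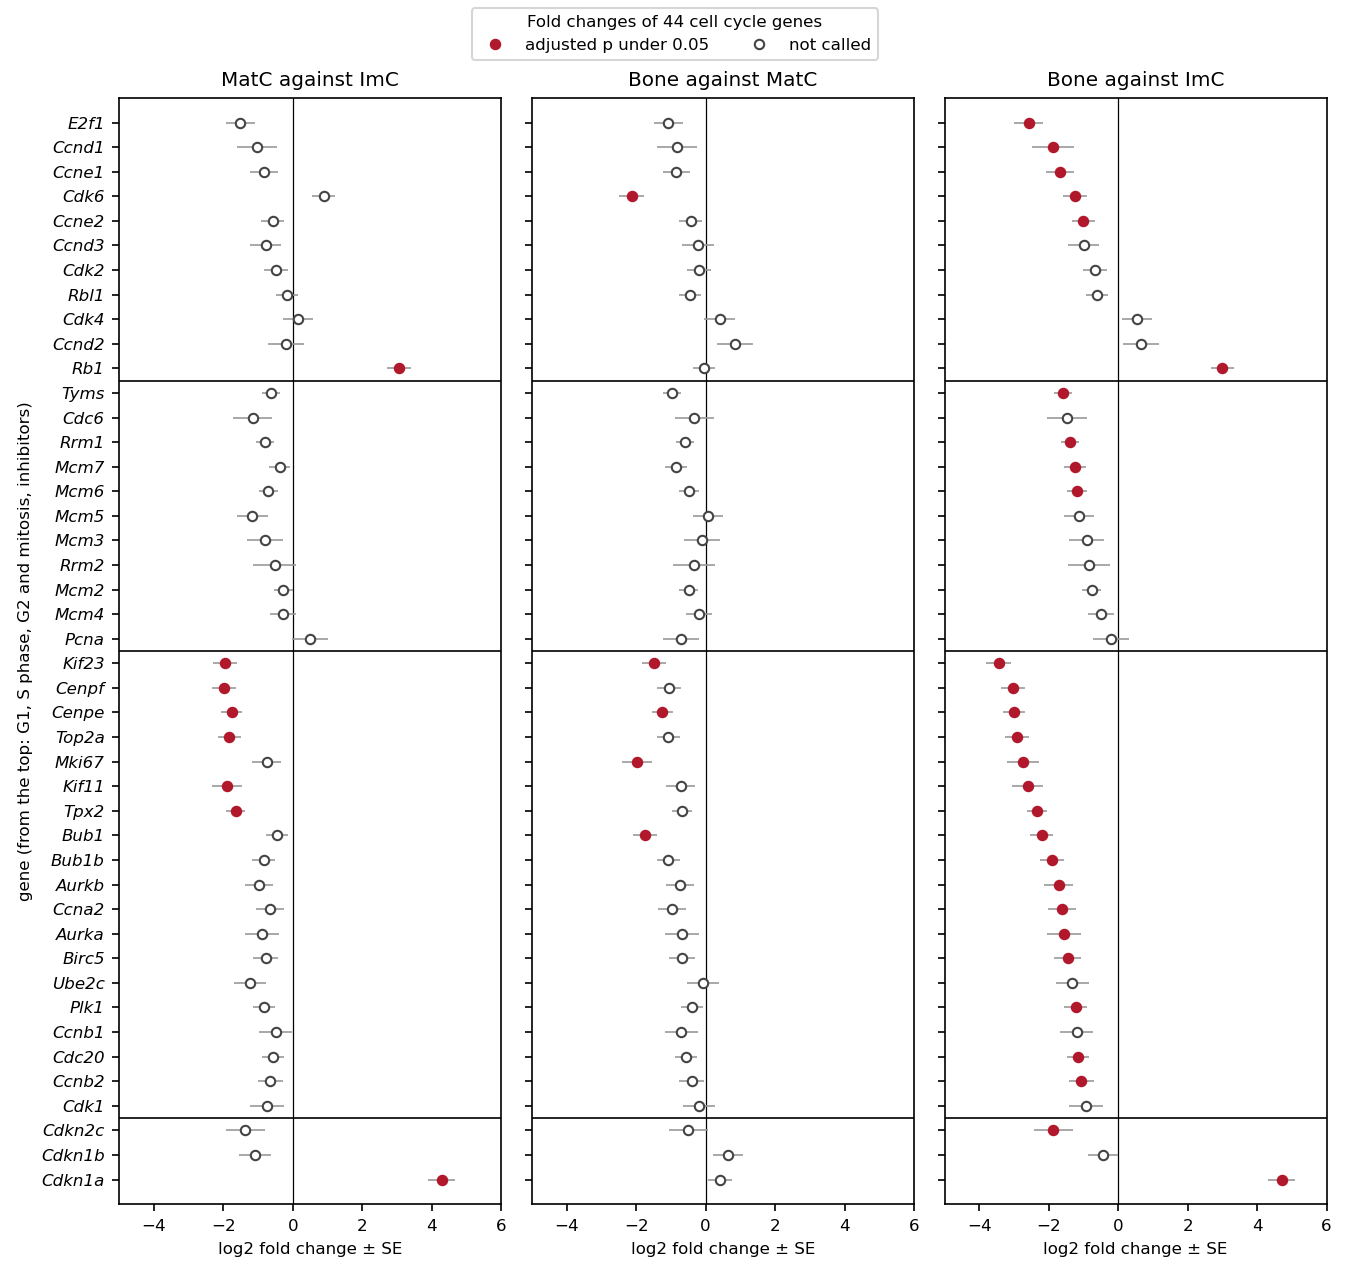
Log2 fold change ± SE of the 44 members (rows, by role) for MatC against ImC, then Bone against MatC, then Bone against ImC, with filled points for an adjusted p under 0.05. All 19 mitotic genes lie left of 0 in each panel, and Rb1 and Cdkn1a are the 2 filled points right of 0, both against ImC.

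Fewer S-phase genes passed the test. Their median log2 fold change was -0.63, -0.48 and -1.12 in the 3 comparisons, and the test called 0 of 11 lower in MatC against ImC, 0 in Bone against MatC and 4 in Bone against ImC. At an unadjusted p under 0.05 the first 2 counts were 4 and 2, and DESeq2 called 1 in each. Of all genes, the test called 2.29%, 4.69% and 16.8% lower in the 3 comparisons. Without ImC 3, the count in Bone against ImC rose from 4 to 9 of 11, with Mcm2, Mcm3, Mcm5, Rrm2 and Cdc6 added. Tyms, which makes thymidylate for DNA, was at 65.5, 52.8 and 58.2 CPM in ImC, 29.2, 42.7 and 42.4 in MatC and 20.8, 16.4 and 21.1 in Bone. Rrm1, the large subunit of ribonucleotide reductase, was at 64.7, 77 and 47 CPM in ImC, 33, 41.6 and 32.8 in MatC and 24.6, 21.6 and 26 in Bone. In both genes the 3 groups were fully separated in the order ImC, MatC, Bone. Their log2 fold changes in Bone against ImC were -1.60 ± 0.26 (adjusted p = 0.00216) for Tyms and -1.39 ± 0.26 (adjusted p = 0.00457) for Rrm1. In the other comparisons Tyms gave -0.63 ± 0.26 (adjusted p = 0.162) for MatC against ImC and -0.97 ± 0.26 (adjusted p = 0.0542) for Bone against MatC.

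Mcm6 and Mcm7 are subunits of the helicase that opens DNA at replication forks. Mcm6, whose promoter is printed above, was at 64.7, 91.9 and 59.3 CPM in ImC, 33.2, 51.9 and 46.7 in MatC and 31.3, 27.4 and 35.8 in Bone, with -1.19 ± 0.28 (adjusted p = 0.011) in Bone against ImC. Mcm7 was at 21.1, 25.6 and 15.7 CPM in ImC, 14, 13.9 and 20.4 in MatC and 9.85, 7.88 and 8.61 in Bone, with -1.24 ± 0.31 (adjusted p = 0.0133). Both had every ImC library above every Bone library. The Mcm6 call was lost without Bone 2 (adjusted p = 0.0629), and the Mcm7 call without Bone 2 or Bone 3 (adjusted p from 0.0645 to 0.0688). Mcm7 shares exon bases with Cops6 and Ap4m1 on the opposite strand, and the library kit does not mark strand, so its level may hold some of their reads. In all, 14 of the 44 members share exon bases with a gene on the opposite strand. Among them are Ccnd3 (with Bysl), Cdk4 (with Tspan31), Ccne2 (with Ints8), and Rb1 and Cdkn1a, described below. Ints8 had 972 reads over the 9 libraries and Ccne2 had 1216. Ap4m1 was itself lower in Bone than in ImC, with a log2 fold change of -1.99 (adjusted p = 0.0273). The other 4 helicase subunits, Mcm2 to Mcm5, had log2 fold changes from -1.12 to -0.49 in Bone against ImC and were not called with all libraries, and without ImC 3 the test called Mcm2, Mcm3 and Mcm5 lower.

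Pcna, the sliding clamp of the DNA polymerases, passed no test. It was at 90.2, 86.8 and 16.2 CPM in ImC, 104, 59.5 and 108 in MatC and 56.3, 50.4 and 60.4 in Bone. ImC 3 was the lowest of all 9 libraries, while ImC 1 and ImC 2 lay above every Bone library. The log2 fold change was 0.49 ± 0.52 (adjusted p = 0.608), -0.70 ± 0.52 (adjusted p = 0.474) and -0.21 ± 0.52 (adjusted p = 0.785) in MatC against ImC, in Bone against MatC and in Bone against ImC, none called. Rrm2, the small subunit of ribonucleotide reductase, had the widest gap in ImC, with ImC 3 at 0.122 times the mean of the other libraries of its group. Cdc6, which loads the helicase, was not called with all libraries, at -1.48 ± 0.57 (adjusted p = 0.0691) in Bone against ImC.

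Ratios of reads within a library do not depend on how libraries are scaled, and they are given as descriptions. Mitotic reads over S-phase reads were 2.69, 2.75 and 3.41 in ImC, 1.35, 1.83 and 1.80 in MatC, and 1.24, 1.19 and 1.38 in Bone. Every ImC library lay above every MatC and Bone library, and MatC and Bone overlapped. Reads of G1 members over S-phase reads were 1.37, 1.35 and 1.57 in ImC, 1.84, 2.14 and 0.739 in MatC, and 3.67, 3.32 and 2.54 in Bone. Bone was the highest group, and MatC 3 was the lowest library. Ccnd2 alone held 72.1% to 80.8% of the G1 reads in Bone, 39.9% to 67.5% in MatC and 54.3% to 60.9% in ImC. Without Ccnd2, a choice made after seeing the data, the ratio was 0.536, 0.616 and 0.678 in ImC, 0.734, 0.695 and 0.444 in MatC and 0.704, 0.916 and 0.709 in Bone, so that Bone and MatC overlapped and every Bone library stayed above every ImC library.

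**Figure D3:**
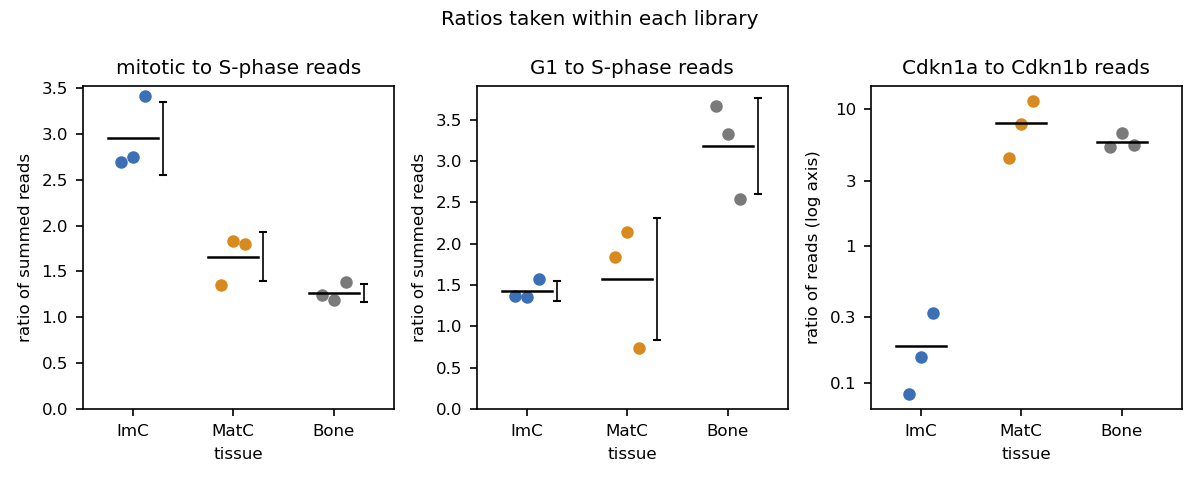
Ratio of reads within each of the 9 libraries, by tissue, for mitotic over S-phase members, G1 over S-phase members and Cdkn1a over Cdkn1b (the last on a log axis); points are libraries, bars are group means and error bars, on the first 2 panels, are SD (n = 3). The 3 ImC libraries are highest for mitotic over S-phase reads and lowest for Cdkn1a over Cdkn1b, and the Bone libraries are highest for G1 over S-phase reads, where Bone and MatC overlap once Ccnd2 is left out.

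G1 genes were mixed. Among 11 genes, the median log2 fold change was -0.49, -0.43 and -1.0 in the 3 comparisons, and 5 were lower in Bone than in ImC (Ccnd1, Cdk6, Ccne1, Ccne2 and E2f1), 1 lower in Bone than in MatC (Cdk6) and 1 higher in MatC and in Bone than in ImC (Rb1). The test called 0 lower in MatC than in ImC, against 1 at an unadjusted p under 0.05 and 1 by DESeq2. Of all genes, 16.8% were lower in Bone than in ImC and 4.69% lower in Bone than in MatC. Against ImC, 5.41% were higher in MatC and 14.3% in Bone, so the G1 counts of 1 lie near the shares of all genes.

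The D-type cyclins start the phosphorylation of the retinoblastoma protein. Per 1000 exon bases, Ccnd2 was the most abundant of the 3 in each tissue, at 66.3 ± 20.1 CPM in Bone, 42.4 ± 12.7 in ImC and 36.8 ± 23.3 in MatC (SD, n = 3). On that scale, in the order ImC, MatC, Bone, Ccnd1 was at 16.7 ± 10.7, 8.11 ± 4.85 and 4.58 ± 0.052, and Ccnd3 at 4.04 ± 1.06, 2.33 ± 1.5 and 2.02 ± 0.469. The RNA was amplified before library preparation, which can favour the 3′ ends of transcripts, so levels per length are approximate.

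Ccnd1 was at 79.7, 129 and 27.9 CPM in ImC, 49.4, 53.3 and 11.9 in MatC and 21.3, 21.7 and 21.7 in Bone. Both cartilage groups were widely spread, with library 3 lowest in each, and every ImC library lay above every Bone library. The log2 fold change was -1.03 ± 0.58 (adjusted p = 0.308) in MatC against ImC, -0.83 ± 0.58 (adjusted p = 0.439) in Bone against MatC and -1.87 ± 0.60 (adjusted p = 0.0377) in Bone against ImC. The last call was lost without ImC 1, ImC 2, Bone 1, Bone 2 or Bone 3 (adjusted p from 0.0775 to 0.115). Ccnd2 was at 473, 462 and 261 CPM in ImC, 394, 538 and 107 in MatC and 842, 522 and 508 in Bone, and its values were -0.20 ± 0.52 (adjusted p = 0.851), 0.85 ± 0.52 (adjusted p = 0.37) and 0.65 ± 0.52 (adjusted p = 0.366). Ccnd3 was at 26.7, 45.3 and 34.5 CPM in ImC, 18.2, 34.6 and 8.49 in MatC and 22.2, 14.1 and 16.8 in Bone, and its values were -0.78 ± 0.45 (adjusted p = 0.318), -0.22 ± 0.45 (adjusted p = 0.815) and -1.0 ± 0.45 (adjusted p = 0.114). Neither was called, and MatC 3 was the lowest of the 9 libraries for all 3 cyclins. Ccnd1 reads over Ccnd2 reads were 0.169, 0.279 and 0.107 in ImC, 0.126, 0.0991 and 0.111 in MatC and 0.0253, 0.0416 and 0.0428 in Bone. Bone was the lowest group in that ratio, without overlap.

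The partner kinases differed in pattern. Cdk6 (chr5:3341485-3531008, plus strand) was at 8.08, 6.06 and 8.33 CPM in ImC, 12.8, 12.1 and 16.7 in MatC and 3.9, 2.4 and 3.15 in Bone. It was highest in mature cartilage and lowest in bone, and the 3 groups did not overlap. On the log2 scale it gave 0.88 ± 0.34 (adjusted p = 0.147, not called) in MatC against ImC, -2.13 ± 0.36 (adjusted p = 0.00928) in Bone against MatC and -1.24 ± 0.35 (adjusted p = 0.0227) in Bone against ImC. The call between Bone and MatC was lost without Bone 2 or Bone 3 (adjusted p from 0.0606 to 0.0718), and that between Bone and ImC without ImC 1, Bone 2 or Bone 3 (adjusted p from 0.0735 to 0.105). Cdk4, the other partner, was at 64.3, 94.7 and 28.1 CPM in ImC, 102, 63.6 and 40.7 in MatC and 85.9, 97.5 and 89.5 in Bone. Bone lay within the cartilage libraries, and the values were 0.15 ± 0.44 (adjusted p = 0.875), 0.40 ± 0.44 (adjusted p = 0.646) and 0.54 ± 0.44 (adjusted p = 0.371), none called.

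**Figure D4:**
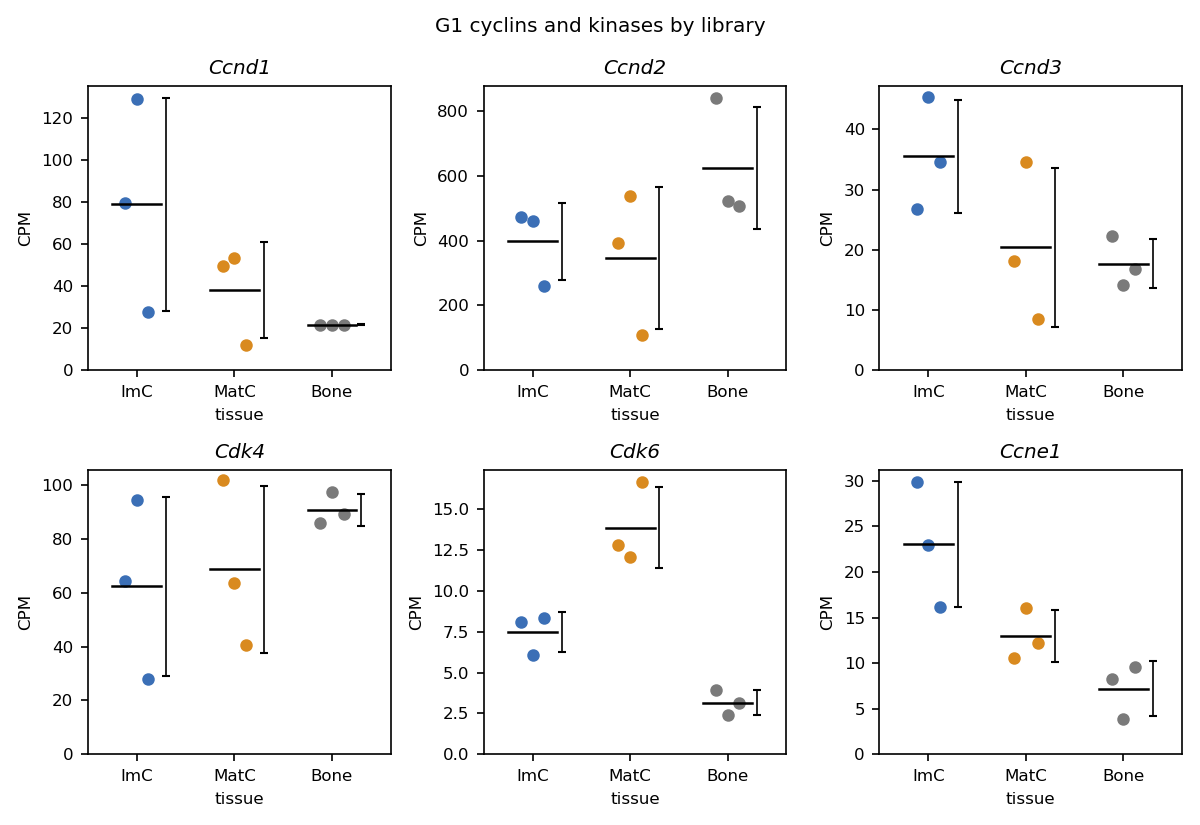
CPM of Ccnd1, Ccnd2, Ccnd3, Cdk4, Cdk6 and Ccne1 in each library by tissue, with the mean (bar) and SD (error bar, n = 3) and axes that start at 0. The Cdk6 points are highest in MatC and lowest in Bone, the Ccne1 points step down from ImC to Bone, and the lowest cartilage point of each D-type cyclin is MatC 3.

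E-type cyclins act with CDK2 at the entry to S phase. Cdk2 itself was at 28.7, 26.7 and 12.8 CPM in ImC, 15.7, 20.3 and 12.2 in MatC and 13.8, 15.5 and 13.2 in Bone and was not called with all libraries, though lower in Bone than in ImC without ImC 3. Ccne1 was at 29.9, 23 and 16.2 CPM in ImC, 10.5, 16.1 and 12.2 in MatC and 8.23, 3.85 and 9.52 in Bone, stepping down without overlap. Its log2 fold change was -1.67 ± 0.40 (adjusted p = 0.0119) in Bone against ImC, and -0.83 ± 0.40 (adjusted p = 0.224) and -0.84 ± 0.40 (adjusted p = 0.242) in MatC against ImC and Bone against MatC. The call was lost without Bone 2 (adjusted p = 0.0502). Ccne2 was at 15.2, 15.7 and 9.26 CPM in ImC, 9.02, 8.04 and 9.9 in MatC and 7.58, 6.94 and 5.46 in Bone, with -1.01 ± 0.33 (adjusted p = 0.0419) in Bone against ImC. This call was lost without ImC 1, ImC 2, MatC 1, MatC 2, Bone 1, Bone 2 or Bone 3 (adjusted p from 0.052 to 0.173).

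E2f1, the transcription factor that switches on replication genes (chr2:154559407-154569892, minus strand), was at 32, 29.3 and 48 CPM in ImC, 7.12, 19.3 and 11.9 in MatC and 7.47, 4.28 and 6.48 in Bone. Every ImC library lay above every other library, ImC 3 was the highest, and MatC and Bone overlapped. Its log2 fold change was -1.51 ± 0.41 (adjusted p = 0.0504, just outside the call) in MatC against ImC, -1.07 ± 0.41 (adjusted p = 0.153) in Bone against MatC and -2.58 ± 0.42 (adjusted p = 0.00218) in Bone against ImC. The MatC value against ImC was called by DESeq2, with scaling that leaves out mitochondrial genes, without the filter on low counts and without MatC 2.

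Rb1, which encodes the retinoblastoma protein that binds E2F factors (chr14:73183673-73325822, minus strand), was higher in both mature cartilage and bone. It was at 2.08, 2.43 and 3.49 CPM in ImC, 22.5, 16.2 and 28 in MatC and 19.4, 22.5 and 22.4 in Bone. The highest ImC library lay well below the lowest of the others, and MatC and Bone overlapped. The log2 fold change was 3.05 ± 0.34 (adjusted p = 0.00184), or 8.27-fold, in MatC against ImC and 3.0 ± 0.34 (adjusted p = 0.000355), or 8.01-fold, in Bone against ImC. Between Bone and MatC it was -0.05 ± 0.31 (adjusted p = 0.954). Rb1 shares exon bases with Rcbtb2 and Lpar6 on the opposite strand. Rcbtb2 was at 19.5, 16.7 and 14.1 CPM in ImC, 34.6, 24.1 and 24.0 in MatC and 28.3, 24.3 and 23.8 in Bone, with 0.72 (adjusted p = 0.131) in MatC against ImC and 0.60 (adjusted p = 0.11) in Bone against ImC. Lpar6 was at most 4.85 CPM, with 1.65 (adjusted p = 0.288) in MatC against ImC. The part of these genes in the Rb1 values was not tested. Rbl1, a relative of the retinoblastoma protein, was at 16.9, 16.1 and 10.6 CPM in ImC, 14.4, 14.9 and 9.33 in MatC and 10.1, 9.93 and 8.39 in Bone and was not called. Rb1 reads over Rbl1 reads were 0.123, 0.151 and 0.329 in ImC, 1.56, 1.08 and 3.0 in MatC and 1.93, 2.27 and 2.67 in Bone, so Rbl1 had the more reads in every ImC library and Rb1 in every other library. The 2 genes have similar exon lengths, 6015 and 5993 bases.

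The inhibitors went in different directions. Cdkn1a, an inhibitor of CDK2 and other CDKs that p53 activates (chr17:29090976-29100727, plus strand), was at 2.17, 5.96 and 4.49 CPM in ImC, 75.1, 101 and 71.8 in MatC and 118, 101 and 111 in Bone. All 3 ImC libraries were far below the other 6, and the highest MatC library and the lowest Bone library were both at 101 CPM. The log2 fold change was 4.28 ± 0.39 (adjusted p = 0.000823) in MatC against ImC, a 19.5-fold higher level, and 4.70 ± 0.40 (adjusted p = 9.1e-05) in Bone against ImC, a 25.9-fold higher level. Between Bone and MatC it was 0.41 ± 0.34 (adjusted p = 0.511). Without ImC 3 and MatC 3 together, the first value was 4.41 and the second 4.76. These were the largest differences among the members in those comparisons. Cdkn1a shares 273 exon bases with AC167363.2 on the opposite strand, a gene without counts here. Its part in the Cdkn1a values was not tested.

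Cdkn1b, which inhibits CDK2 with cyclin E, was at 26.4, 38.8 and 14 CPM in ImC, 17.3, 13 and 6.22 in MatC and 22.6, 15.2 and 20.4 in Bone. The groups overlapped, and the log2 fold changes were -1.09 ± 0.45 (adjusted p = 0.163), 0.65 ± 0.44 (adjusted p = 0.428) and -0.44 ± 0.44 (adjusted p = 0.466), none called. Cdkn2c, an inhibitor of CDK4 and CDK6, was at 9, 18.3 and 3.42 CPM in ImC, 4.32, 3.81 and 3.68 in MatC and 3.19, 2.23 and 2.93 in Bone. Every ImC library lay above every Bone library, though ImC 3 was close to them. Its log2 fold change was -1.87 ± 0.56 (adjusted p = 0.0289) in Bone against ImC, a call lost without ImC 1, ImC 2, Bone 1, Bone 2 or Bone 3 (adjusted p from 0.0583 to 0.128), and -1.37 ± 0.56 (adjusted p = 0.16) in MatC against ImC.

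Per 1000 exon bases, the 3 inhibitors among the members were in ImC at 5.80 ± 2.72 CPM for Cdkn1b, 3.81 ± 2.80 for Cdkn2c and 1.18 ± 0.539 for Cdkn1a (SD, n = 3). Cdkn2c overlapped each of the others over the ImC libraries, with Cdkn2c at 1.27 and Cdkn1a at 1.26 in ImC 3. In MatC, Cdkn1a was at 23.2 ± 4.5, Cdkn1b at 2.68 ± 1.23 and Cdkn2c at 1.47 ± 0.127 on that scale, and in Bone they were at 30.9 ± 2.41, 4.26 ± 0.832 and 1.04 ± 0.186. Cdkn1a lay above both others in every MatC and Bone library. Cdkn1a reads over Cdkn1b reads were 0.082, 0.154 and 0.321 in ImC, 4.35, 7.71 and 11.5 in MatC and 5.24, 6.63 and 5.44 in Bone, with ImC below all other libraries.

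**Figure D5:**
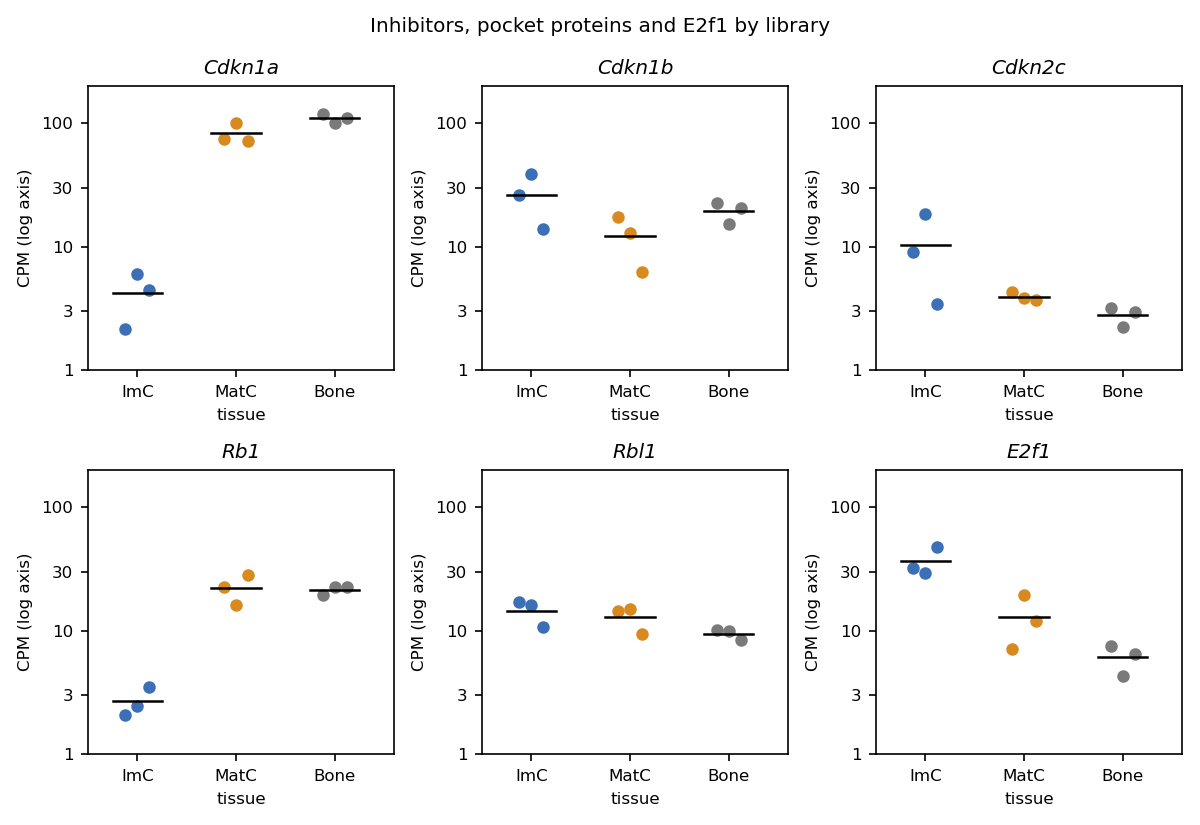
CPM on a log axis of Cdkn1a, Cdkn1b, Cdkn2c, Rb1, Rbl1 and E2f1 in each library by tissue, with the group mean as a bar (n = 3). Cdkn1a and Rb1 are lowest in the 3 ImC libraries and E2f1 is highest there, while the Cdkn1b points overlap between tissues and the Rbl1 points of MatC overlap those of both other tissues.

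Markers of macrophages, endothelium and osteoclasts moved with the same comparisons. Of all genes, 5.41% were called higher in MatC and 14.3% higher in Bone, both against ImC. Of 12 tested macrophage and leukocyte markers, 6 were higher in MatC and 10 in Bone than in ImC, and the summed CPM of the list ran from 11.8 to 32.1 in ImC libraries, from 25.2 to 121 in MatC and from 59.5 to 146 in Bone. C1qa was at 0 in all 3 ImC libraries and Ptprc at 0 in MatC 3. Of 11 endothelial markers, 6 were higher in MatC and 7 in Bone, with sums of 9.42 to 30.8, 40.4 to 316 and 63.8 to 184 CPM, and Cdh5 at 0 in ImC 2. Of 10 osteoclast markers, 4 and 8 were higher, with sums of 22.6 to 51.2, 80.6 to 669 and 528 to 1153 CPM. Of 7 tested erythroid markers, 1 and 2 were higher, and their sums were 10.2, 21.7 and 1425 CPM in ImC, with ImC 3 the high library. Those sums lay between 874 and 3508 CPM for MatC and between 6439 and 9212 CPM for Bone. Of 9 tested skeletal muscle markers, 2 were higher in MatC and 1 in Bone than in ImC, the latter near the share of all genes. Their sums were 11.8 to 27.9, 30.2 to 413 and 11.1 to 119 CPM. MatC 2 was the highest MatC library in all 5 of these sums, for osteoclast markers at 669 CPM against 148 in MatC 1 and 80.6 in MatC 3. The part of these marker lists in the levels of the cell cycle genes was not tested.

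Other genes of the cycle, none of them among the 44, were listed by role and read from the same fit. Of 50 further mitosis genes, 12 were lower in MatC than in ImC, 5 lower in Bone than in MatC and 40 lower in Bone than in ImC, with 1 higher in the last. The shares of all genes called lower were 2.29%, 4.69% and 16.8%, and 14.3% were higher in the last. The 4 with the smallest p in MatC against ImC were the kinetochore scaffold Knl1 (listed under its older name Casc5, -2.80, adjusted p = 0.00246), the condensin subunits Smc2 (-1.34, adjusted p = 0.0136) and Ncapd2 (-1.98, adjusted p = 0.0193), and Cdca8 of the passenger complex (-1.39, adjusted p = 0.0207). In Bone against MatC they were Kif18a (-1.92, adjusted p = 0.01), Spag5 (-2.51, adjusted p = 0.0168), Kif20b (-1.89, adjusted p = 0.0297) and Nuf2 (-1.47, adjusted p = 0.0438), a kinetochore subunit. In Bone against ImC they were Knl1 (-3.62), Smc2 (-2.24), Spag5 (-3.84) and Kif20b (-3.33), with adjusted p of 0.000185, 0.000339, 0.000789 and 0.000839.

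Of 39 further genes of replication and S phase, 6 were lower in MatC than in ImC, 3 lower in Bone than in MatC and 26 lower in Bone than in ImC, with 0 higher by edgeR's adjusted p, 0 at an unadjusted p under 0.05 and 0 by DESeq2 in each. Among all genes, 2.29%, 4.69% and 16.8% were called lower in these comparisons. The 4 leading genes in MatC against ImC were the chromatin remodeller Hells (-1.13, adjusted p = 0.0307), the maintenance methyltransferase Dnmt1 (-1.29, adjusted p = 0.0308), the uracil glycosylase Ung (-1.73, adjusted p = 0.0391) and Rpa2 of the single-strand binding complex (-1.0, adjusted p = 0.0414). The 3 in Bone against MatC were the polymerase subunit Pole (-2.02, adjusted p = 0.0159), the primase Prim1 (-1.61, adjusted p = 0.0425) and the checkpoint adaptor Clspn (-2.04, adjusted p = 0.0446). In Bone against ImC, Pole (-3.24), Clspn (-3.98), Hells (-1.88) and Prim1 (-2.82) led, with adjusted p of 0.000594, 0.000985, 0.00111 and 0.00128.

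Of 22 further genes of G1 control and the E2F-Rb system, 2 were called, both lower in Bone than in ImC, and they were the repressor E2Fs E2f8 (-2.28, adjusted p = 0.0097) and E2f7 (-1.84, adjusted p = 0.0345). That is a smaller share than the 16.8% of all genes called lower there. Of 13 tested inhibitors and growth arrest genes, 3 were higher in Bone than in ImC, namely Btg1 (1.26, adjusted p = 0.0135), Gadd45b (1.58, adjusted p = 0.0173) and Ccng1 (0.92, adjusted p = 0.0352), and 2 were lower, Pkmyt1 (-2.17, adjusted p = 0.0456) and Cdkn2d (-0.85, adjusted p = 0.0475). These counts lie near the background of 14.3% of all genes called higher and 16.8% lower. In MatC against ImC these last lists had 0 calls, against 3 and 4 genes at an unadjusted p under 0.05 in either direction and 2 and 3 by DESeq2. In Bone against MatC they also had 0, against 2 and 2 genes unadjusted and 1 and 0 by DESeq2. The lists were chosen with earlier results of these data known.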

How the data were processed

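The members and gene lists were chosen with earlier results of these data known. The authors deposited a table of raw counts, whole reads per gene symbol for 43472 genes (0 entries without a gene name). Per the labels' protocols, RNA was amplified for 1 round before an Illumina TruSeq preparation, which does not mark strand. Per the submitters' processing notes, the tools were Trimmomatic 0.30, TopHat2, Bowtie2, HTSeq and edgeR, with mm10; their roles, the annotation and the strand setting are not given in the sources used here. A deposited normalized table was not used.

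Groups came from library titles. Genes were kept by filterByExpr (minimum count 10), which left 14257 genes with 99.8% or more of every library's counts. All 9 libraries entered 1 edgeR 4.0.16 quasi-likelihood fit (R 4.3.3) with TMM factors, and p-values were adjusted over all genes of a comparison (Benjamini-Hochberg, called under 0.05). The SE was taken as the size of the log2 value divided by the root of its F statistic. Members were given in full where called in any comparison, with Mki67, Top2a, Cdk1, Pcna, the D-type cyclins, Cdk4, Cdk6 and the inhibitors always; other lists by counts and up to 4 called genes with the smallest p. Alternatives were library size only, DESeq2 1.42.0, scaling without mitochondrial genes, no filter, only the 2 groups compared, a replicate block, and each library left out, plus ImC 3 and MatC 3 together, added after seeing the data. 1 read was worth 0.0496 to 0.0856 CPM, and 0.283 in MatC 3. No 2 libraries of a group agreed within sampling noise. The procedure was also run on simulated counts that held no outlying libraries, so that run does not bear on the effects of ImC 3 or MatC 3. Coordinates are from GENCODE M21 (GRCm38, which mm10 denotes). No batch is named in the labels.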

Additional observations from a re-analysis of the deposited data

How the results depend on the processing

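Rb1 and Cdkn1a stayed higher against ImC in all 16 alternatives, and the members called higher were 2, 0 and 2 in each. Of the members called lower, 1 of 6 (MatC against ImC), 0 of 5 (Bone against MatC) and 8 of 26 (Bone against ImC) were called in every alternative. The counts of members lower in these comparisons were 3, 0 and 8 with library size only, 8, 9 and 29 with DESeq2, and 2, 6 and 27 with only the 2 groups compared. Without ImC 3 and MatC 3 together they were 16, 9 and 36. Leaving out 1 library gave 5 to 10, 0 to 10 and 12 to 35. The replicate block gave 6, 4 and 23. Numbers are shared across groups, and whether they pair the libraries is not given. Deviations of same-numbered libraries correlated at -0.131 to 0.24, and those of differently numbered libraries at -0.396 to 0.36. These ranges overlap and rest on few libraries, so they cannot decide it.

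All genes called higher and lower in MatC against ImC were 191 and 167 with library size only, 1373 and 856 with DESeq2, 157 and 48 with only the 2 groups compared, 1327 and 581 without ImC 3 and MatC 3 together, 267 to 949 and 88 to 342 without 1 library; 1225 were higher without the filter and 191 lower with the replicate block. In Bone against MatC they were 119 and 178 with library size only, 676 and 1288 with DESeq2, 445 and 1059 without the filter, 564 and 1041 without both libraries, 14 to 542 and 153 to 1160 without 1 library; 442 were higher with only the 2 groups. In Bone against ImC they were 1224 and 849 with library size only, and 1222 to 2618 and 1121 to 2790 without 1 library.

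Values that changed sign were uncalled in the reported fit. Library size only changed the sign of 31 of the 44 members in Bone against MatC, where it moved the median of all genes from -0.03 to 0.95 and that of the members to 0.47. Among members described in full, the log2 fold changes were then Ccnd3 0.75, Ccne1 0.25, Ccne2 0.60, E2f1 0.13, Rb1 1.0, Mcm6 0.66, Mcm7 0.25, Pcna 0.28, Rrm1 0.46, Tyms 0.17, Tpx2 0.45, Ccna2 0.11, Ccnb2 0.71, Cdk1 0.74, Plk1 0.73, Aurka 0.46, Aurkb 0.31, Bub1b 0.08, Birc5 0.52, Cdc20 0.53, Kif11 0.37 and Cdkn2c 0.47. In MatC against ImC they were Cdk4 -0.24 and Pcna -0.13, and in Bone against ImC Pcna 0.15. Leaving out 1 library gave, in MatC against ImC, -0.66 to 0.24 for Ccnd2 (positive without MatC 3) and -0.25 to 0.58 for Cdk4 (-0.20 without ImC 3, lowest without MatC 1). In Bone against MatC it gave -0.55 to 0.40 for Ccnd3 and -0.96 to 0.17 for Aurka (both positive without MatC 2), and -0.22 to 0.17 for Rb1 (0.03 without Bone 1, highest without MatC 3). In Bone against ImC, Pcna ran from -0.66 to 0.15 (0.07 without ImC 2, highest without ImC 1). Without ImC 3 and MatC 3 together, Ccnd2 was 0.01 and Pcna -0.10 in MatC against ImC, and Rb1 was 0.17 in Bone against MatC, where it was 0.04 without the filter. The cause of the changes on leaving out libraries was not tested. Depth limits MatC 3 most, with 4826 member reads.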

Other observations

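A few genes outside the rule for naming genes were chosen after their values were seen. Pttg1 and Cdkn1c differed from the mitotic pattern, and Foxm1 followed it. Pttg1, which encodes securin, was at 4.67, 4.17 and 0.997 CPM in ImC, 19.3, 11.8 and 4.24 in MatC and 18.6, 17.7 and 17.8 in Bone. It was the 1 of 50 further mitosis genes called higher in Bone than in ImC, at 2.46 ± 0.62 on the log2 scale (adjusted p = 0.0147), and ImC and Bone did not overlap. Cdkn1c, a CDK inhibitor known from cartilage, was at 1715, 1628 and 1531 CPM in ImC, 1861, 1095 and 2187 in MatC and 1142, 1159 and 1209 in Bone. It was called in none of the 3 comparisons, with 0.08 ± 0.32 (adjusted p = 0.91) in MatC against ImC and -0.47 ± 0.32 (adjusted p = 0.288) in Bone against ImC. Foxm1, a transcription factor of mitotic genes, was at 12, 12.1 and 21.5 CPM in ImC, 2.73, 5.64 and 11 in MatC and 2.11, 1.80 and 3.10 in Bone, and was lower in Bone than in ImC, at -2.69 ± 0.54 (adjusted p = 0.00569).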
